A study of Mus musculus with 4 samples.

Results

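Gene expression at 24 h of TGF-β was compared with that at 12 h in primary cultures of Gli1+ kidney cells from male mice aged 12 weeks, using only deep barcodes, those with 2000 or more counts in all. A barcode stands for the RNA caught on 1 bead, usually from 1 cell. Of 3298 barcodes in the series, 822 of the 24 h library and 733 of the 12 h library met this minimum. After attaching overnight, the cells were starved of serum for 2 h, and TGF-β at 1 ng/ml was then added for 12 or 24 h. Each time point is 1 Drop-seq library, so nothing here is checked by a replicate, and intervals (95%, exact) cover counting error only. The number of mice or dishes behind each library is not stated. An untreated culture was taken only before TGF-β was added, so hours with the cytokine and hours without serum cannot be told apart.

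Gli1 is a marker of perivascular and interstitial mesenchyme, the source of many matrix-producing myofibroblasts in kidney fibrosis. TGF-β binds a receptor kinase pair, which phosphorylates SMAD2 and SMAD3, and these act in the nucleus to raise contractile, collagen and feedback genes. A myofibroblast is known for stress fibres of smooth muscle actin and secretion of fibrillar collagen.

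Each gene is given by its summed level, as counts scaled to a total of 1000000 over the deep barcodes (CPM), and by its mean over barcodes that each weigh the same. The share of barcodes with at least 1 count, after every barcode was randomly thinned to 2000 counts, is given as well. The deep barcodes held 5362377 counts at 12 h (94.3% of that library) and 5855450 at 24 h (94.96%), with medians of 6387 and 5783 per barcode. Finding no count of a gene allows a level of up to 0.559 CPM in the 12 h library and 0.512 CPM in the 24 h library (3 counts). The 6 h library, given for some genes, has only 50 deep barcodes with 536639 counts, and there the limit is 5.59 CPM. The libraries shared no barcode, and 118 and 128 deep barcodes lay 1 base from another of their library. Ribosomal protein genes took a median of 10.8% of a barcode's counts at 12 h and 15.4% at 24 h, and mitochondrial genes 2.23% and 1.76%.

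Markers of mesenchyme summed to 18067 CPM at 12 h and 17769 CPM at 24 h, led by S100a6, Vim, Col1a2, Fn1 and Sparc, while Dcn (0.746 and 0.512 CPM) and Postn (0.932 and 0.683 CPM) were near 0 at both times. Gli1 itself was not analysed here. Proximal tubule markers summed to 1.49 and 2.73 CPM, endothelial markers to 10.1 and 8.20, and myeloid markers to 3.92 and 3.07. Of the podocyte list, Synpo, an actin-binding gene that other cells also use, made up 109 and 173 CPM, and Wt1 had no count. After thinning, 0.273% and 0.365% of barcodes held a proximal tubule count. The free RNA of genes that the cultured cells make could not be measured this way, since no cell type of the cultures is known to lack them.

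Most genes differed by less than 2-fold. Of 2149 genes that reached 100 CPM at 12 or 24 h, 29 (1.35%) were at least 2-fold higher at 24 h by summed CPM, on the scale of CPM plus 10, and 15 (0.698%) were at least 2-fold lower. With equal weight per barcode the numbers were 30 (1.41%) and 15 (0.703%) of 2133. Both measures called 29 genes higher (1.37% of 2113) and 14 lower (0.663%), and the word called is used below for these only. Other members of a list are described as higher or lower where they were at least 1.5-fold apart by summed CPM. Tnnt2, cardiac troponin T, was called lower by summed CPM (946 at 12 h, 455 at 24 h) but missed the limit with equal weight, at a log2 ratio of -0.97. All 43 genes were at least 1.5-fold apart in the same direction within barcodes of 2000 to under 4000, of 4000 to under 8000 and of 8000 or more counts. These are parts of the same barcodes that gave the calls, at a looser limit, so they are not a separate check. They show only that no single depth range made the calls. For all 43 the intervals of the thinned shares lay apart, as they did for 210 (9.77%) of the 2149 genes with a higher share at 24 h and 349 (16.2%) with a lower one. Of the 29 higher genes 14 reached 100 CPM at 24 h only, and of the 14 lower genes 10 did so at 12 h only, so those had to differ to be counted.

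**Figure D1:**
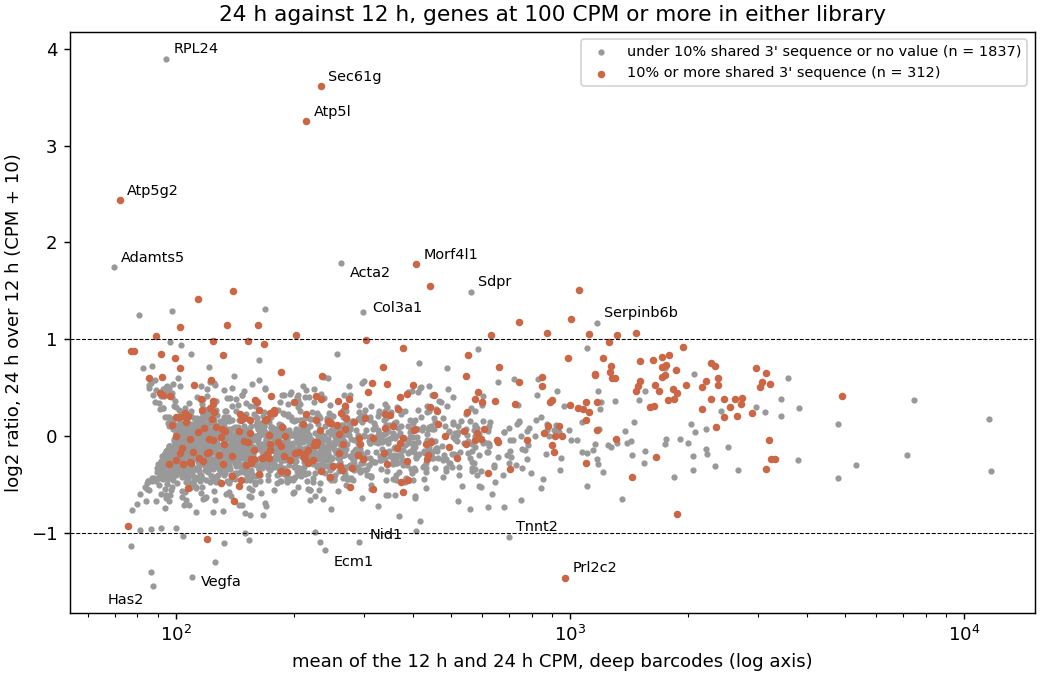
Each point is 1 of 2149 genes, with the mean of its 12 h and 24 h CPM on a log axis and the log2 ratio of CPM plus 10 on the vertical axis; dashed lines mark 2-fold. Orange points are the 312 genes that share 10% or more of their 3′ sequence with another annotated gene, and they lie mostly above the grey points at high levels.

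The genes above the 2-fold line fell into groups that differ in how uniquely their reads can be placed. Drop-seq reads come from the 3′ end of a transcript. For 20 of the 28 higher genes with a matched transcript (71.4%), 10% or more of the 50-base words in the last 500 bases also occur in another annotated gene, against 14.6% of 2140 tested genes and 2 of the 14 lower genes (14.3%). These 20 comprise 8 ribosomal protein genes, Gm6472, and Sec61g, Atp5l, Atp5g2, Morf4l1, Gng5, Wdr89, Phb, Llph, Myl6, Snrpg and Erh. Sec61g, a subunit of the channel that carries new proteins into the endoplasmic reticulum, stood at 388 CPM in the 50 deep barcodes at 6 h, 26.9 at 12 h and 441 at 24 h. Atp5l, a subunit of mitochondrial ATP synthase, stood at 339, 32.6 and 397 CPM. All 20 were lowest at 12 h of the 3 libraries, as were 6 of the other 9 genes called higher. The call itself placed 12 h below 24 h, so only the value at 6 h was free to differ. Over all tested genes the median log2 ratio of 24 h to 12 h was 0.18 for the 312 genes with shared 3′ sequence and -0.13 for the 1828 under 10%. Among the 312 it was 0.05 for the 239 that are not ribosomal protein genes. Reads could not be placed again here, and the part of shared sequence in these differences was not tested.

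RPL24, a ribosomal protein gene that the table writes in capitals and that had no matched transcript, had 190, 3.17 and 186 CPM in time order. As a whole, genes of ribosomal proteins were higher at 24 h: the median log2 ratio over 84 was 0.53, with 37 at least 1.5-fold higher and 0 lower. Over all 6467 genes with a mean of 20 CPM or more the median was -0.11. Of these, 157 (2.43%) were at least 1.5-fold higher, 220 (3.4%) were lower, and 67.7% had log2 ratios below 0. Each list count below is to be read beside these values. Of 79 tested ribosomal protein genes with a matched transcript, 73 have 10% or more shared 3′ words, so the limit on their counts applies to the group.

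**Figure D2:**
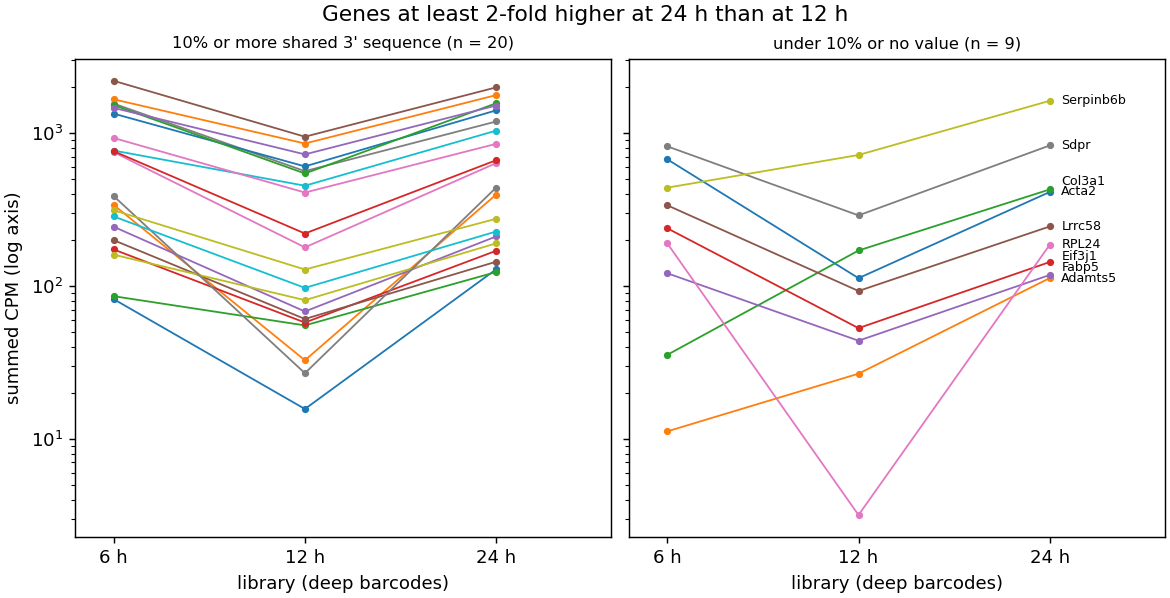
Summed CPM (log axis) of the 29 genes higher at 24 h than at 12 h, in the deep barcodes of the 6, 12 and 24 h libraries; each line is 1 gene. All 20 genes with 10% or more shared 3′ sequence (left) dip at 12 h, while of the other 9 (right) Col3a1, Adamts5 and Serpinb6b rise through the 3 libraries and 6 dip at 12 h. The 6 h values rest on 50 barcodes.

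Leaving out the genes with 10% or more shared sequence, 9 genes were called higher, and the myofibroblast genes Acta2 and Col3a1 were among them. The 9 include RPL24, whose shared sequence is not known because no transcript was matched. Acta2, smooth muscle actin (chr19:34241090-34255590, mm10), stood at 112 CPM at 12 h (104 to 122) and 412 CPM at 24 h (396 to 429), a ratio of 3.67 (3.35 to 4.02). Weighted equally, barcodes averaged 105 and 384 CPM. The share of barcodes with a count was 14.5% (12.0 to 17.2) at 12 h and 32.8% (29.6 to 36.2) at 24 h. Barcodes with 3 or more counts made up 0.955% and 10.3%, and a barcode with any count held 1.37 and 2.27 on average. Thus both the number of barcodes with Acta2 and the counts in each were higher. Its counts were uneven at both times: the 10% of barcodes with most held 67.3% at 12 h and 60.6% at 24 h. At 6 h Acta2 stood at 675 CPM, with 22.4% of its counts in 1 barcode, so 24 h was not its highest level.

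Other genes of the contractile apparatus did not share a direction. Of 24 measured members of a contractile and stress fibre list (mean of 20 CPM or more), 4 were at least 1.5-fold higher, 2 were lower, and the median log2 ratio was 0.10, which changed sign under some alternatives. Tpm1, a tropomyosin that lies along actin filaments, stood at 1614 and 2512 CPM, and Actg1, cytoplasmic γ-actin, at 183 and 287. Myl6, the essential light chain of non-muscle myosin, stood at 564 and 1192 CPM. Actg1 has 44.2% and Myl6 17.5% shared 3′ words, and without the 6 members at 10% or more, 2 of 18 were higher, 2 lower and the median was 0.01. Smtn, smoothelin, was lower, at 106 and 62.3 CPM, and so was Tagln2, a transgelin, at 420 and 271. Tagln itself, a classic smooth muscle marker, was close to the limit of detection, with 3.17 and 10.1 CPM. The pericyte and smooth muscle markers summed to 236 and 159 CPM, most of it from Smtn and from Cspg4, at 91.9 and 40.6 CPM, while 7 of the 11 had a higher CPM at 24 h. Among the 7, Rgs5, a pericyte marker, had 28.0 and 37.9 CPM, and Des and Abcc9 had no count at 12 h.

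Among collagens, type III stood apart. Col3a1 (chr1:45311538-45349706), the chain of type III collagen, had 35.4 CPM at 6 h, 171 at 12 h (160 to 182) and 428 at 24 h (412 to 445). The ratio of 24 h to 12 h was 2.51 (2.33 to 2.71), and the share of barcodes was 28.1% at 12 h and 50.5% at 24 h. Col1a2 was found in nearly every barcode at both times, with 2660 and 3279 CPM, and Col1a1 differed little, with 465 and 448 CPM. The interval of the Col1a1 ratio, 0.912 to 1.02, included equality. Col5a2, a chain of type V collagen that starts fibrils, had 662 and 1002 CPM, and Col11a1 had 126 and 187. In all, 2 of 6 measured fibrillar collagen genes were higher by 1.5-fold or more and 0 lower, with a median log2 ratio of 0.42. Outside the fibrillar group Col8a1 had 75.3 and 144 CPM, whereas Col7a1, the anchoring fibril collagen, had 49.1 and 26.1.

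Among genes that cut or modify matrix, 1 protease was called higher. Adamts5 (chr16:85856173-85901828), the aggrecanase that cuts aggrecan and versican, had 11.2 CPM at 6 h, 26.7 at 12 h (22.5 to 31.4) and 113 at 24 h (104 to 122). Its ratio of 4.23 (3.52 to 5.10) came with a share of barcodes of 4.64% and 17.0%, and at 12 h every barcode with Adamts5 held 1 count. Prss23, a secreted serine protease, had 405 and 763 CPM, and Mmp2, gelatinase A, had 236 and 320. Mmp14 and the inhibitors Timp1, Timp2 and Timp3 were each lower by less than 1.5-fold. Of 11 measured matrix proteases and inhibitors 2 were at least 1.5-fold higher, 1 was lower and 7 had log2 ratios below 0. The median log2 ratio was -0.29, against -0.11 over all genes, and the list summed to 10240 CPM at 12 h and 8812 at 24 h. Of 19 measured matrix glycoprotein genes, Igfbp7 was at least 1.5-fold higher (2850 and 4308 CPM) and 2 were lower. These were Nid1, nidogen of the basement membrane, with 401 and 182 CPM, and Ecm1, extracellular matrix protein 1, with 336 and 143. Fn1, fibronectin, had 2864 and 3389 CPM. The 18 genes of collagen processing had a median log2 ratio of 0.02, and 1 was past 1.5-fold, P4ha3, a prolyl hydroxylase, with 48.7 and 23.2 CPM.

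The other genes called higher and with under 10% shared 3′ words have varied roles. Sdpr, now named Cavin2, a coat protein of caveolae, stood at 290 CPM at 12 h and 831 at 24 h, a ratio of 2.87 (2.71 to 3.04), in 35.3% and 66.9% of barcodes. It had 820 CPM at 6 h, like Acta2 lowest at 12 h. Serpinb6b, an intracellular serpin, had 440, 720 and 1629 CPM in time order. Fabp5, a fatty acid binding protein, had 43.8 CPM at 12 h and 118 at 24 h, and Lrrc58 had 92.7 and 245. Of the 3′ words of 30 bases, 14.7% of those of Fabp5 and 10.1% of those of Serpinb6b occur in another gene, so both pass 10% with the shorter words. Eif3j1, a translation initiation factor, had 52.96 and 143 CPM, with 3.88% shared words of 50 bases. It overlaps Spg11 on the other strand, and since strand handling is not given, reads of the pair cannot be told apart.

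**Figure D3:**
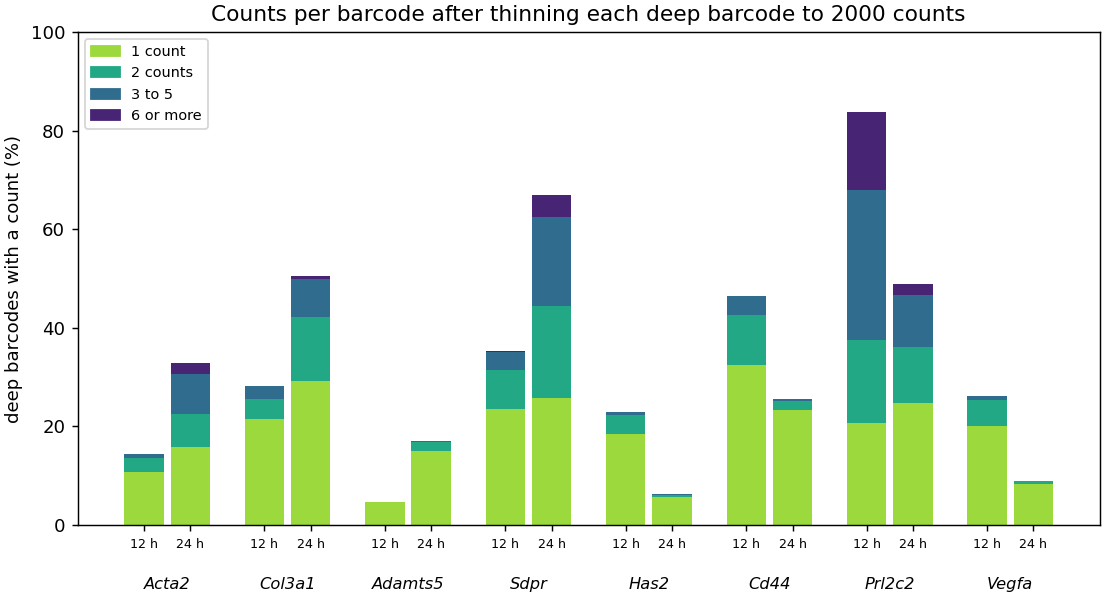
Percent of deep barcodes with 1, 2, 3 to 5 or 6 or more counts of 8 genes after thinning to 2000 counts, at 12 h (733 barcodes) and 24 h (822 barcodes). Acta2, Col3a1, Adamts5 and Sdpr occur in more barcodes at 24 h, and Has2, Cd44, Prl2c2 and Vegfa in fewer.

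Hyaluronan genes were among the lowest at 24 h. Hyaluronan is a large matrix sugar polymer made at the cell surface. Has2 (chr15:56665627-56694539), its main synthase, had 104 CPM at 6 h, 136 at 12 h (126 to 146) and 39.6 at 24 h (34.7 to 45.1). It was thus 3.43-fold lower (2.95 to 3.99) than at 12 h, in 6.33% of barcodes against 22.9%. Ugdh, which makes the UDP-glucuronate that hyaluronan synthases use, had 303 and 147 CPM. Cd44, the main hyaluronan receptor, had 321 and 144 CPM and was found in 46.5% and 25.5% of barcodes. Of the 6 measured genes of this list 4 were at least 1.5-fold lower and 0 higher, with a median log2 ratio of -1.05. The fourth lower gene was Hmmr, which is also a mitotic spindle gene and is described with the cell cycle below. Vcan, a proteoglycan that binds hyaluronan, had 354 and 361 CPM. Has2 overlaps the antisense gene Has2os, whose reads cannot be told apart from its own.

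Genes of secreted factors went in both directions, and several were lower. Prl2c2 (chr13:12996125-13005383), proliferin, had 3194 CPM at 6 h, 1435 at 12 h and 513 at 24 h, and was in 83.8% and 48.9% of barcodes at the last 2 times. Of its 3′ words 83.2% occur in another annotated gene, and proliferin genes are near-identical copies, so the values may hold reads of more than 1 proliferin. Vegfa, the main angiogenic growth factor, had 78.3, 166 and 54.0 CPM in time order, and was 3.08-fold lower (2.70 to 3.51) at 24 h than at 12 h. Bmp2 had 46.6 CPM at 12 h and 14.7 at 24 h, and Tnfrsf11b, osteoprotegerin, had 98.8 and 36.9. Hbegf, a ligand of the EGF receptor, had 496 and 315 CPM. In the opposite direction, Igfbp3, an IGF carrier, had 191 and 295 CPM, and Bdnf, a neurotrophin, had 516 and 692.

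Genes of the TGF-β pathway were lower on balance. Over all 6467 genes 3.4% were at least 1.5-fold lower and 2.43% higher, and the median log2 ratio was -0.11. Of 27 measured ligands, receptors, feedback genes and targets, 5 were at least 1.5-fold lower and 1 was higher, with a median of -0.22. Tgfbr2, the receptor that binds the ligand, was the higher one, at 26.5 and 44.9 CPM. The inhibitors of the pathway were lower: Smad7, which blocks the receptor, had 88.0 and 49.9 CPM. Smurf2, a ubiquitin ligase that marks receptor and SMAD proteins for degradation, had 200 and 109 CPM, and Skil, a SMAD corepressor, had 145 and 88.8. Ctgf, a classic target, had 709 and 607 CPM, and Cdkn2b, a cell cycle inhibitor that the pathway raises, had 240 and 356. Of 16 members with a matched promoter none holds the palindromic SMAD element GTCTAGAC, which 0.213% of 32851 promoter windows hold.

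Junb, an AP-1 factor, was the gene of the TGF-β list furthest below its 12 h level, with 35.4 CPM at 6 h, 131 at 12 h and 42.9 at 24 h (3.05-fold lower, 2.64 to 3.54). It overlaps Prdx2 on the other strand. Among 15 measured immediate early genes 3 were at least 1.5-fold lower, against 3.4% of all 6467 genes, and 0 higher. The median log2 ratio was -0.40, against -0.11 over all genes. The 3 were Junb, Dusp4 (50.7 and 27.3 CPM) and Dusp5 (58.6 and 32.8 CPM). Dusp4 and Dusp5 are phosphatases that are induced by and switch off MAP kinases. Fosl2 and Klf4 had log2 ratios of 0.26 each.

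Integrins join cells to matrix. Itgb3, the β chain of a vitronectin receptor, had 110 CPM at 12 h and 44.4 at 24 h, and Itga5, the α chain of the fibronectin receptor, had 65.1 and 25.4. Itgb1, the β partner of Itga5, had 1690 and 1390 CPM, and Itgb5 had 380 and 373. All 5 measured members had log2 ratios below 0, as did 67.7% of all 6467 genes, and 2 were past 1.5-fold. The sign for Itgb5, at -0.03, changed under some alternatives. Pdlim5, a stress fibre scaffold, had 183 and 68.3 CPM. Frmd6, an upstream regulator of the Hippo pathway, had 185 and 80.3 CPM. The remaining genes called lower were Ank, a pyrophosphate exporter (211 and 95.3 CPM), Gng11 (203 and 96.0), Ggct (144 and 64.9) and Hnrnpa1, a splicing factor with 18.1% shared 3′ words (166 and 73.8).

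**Figure D4:**
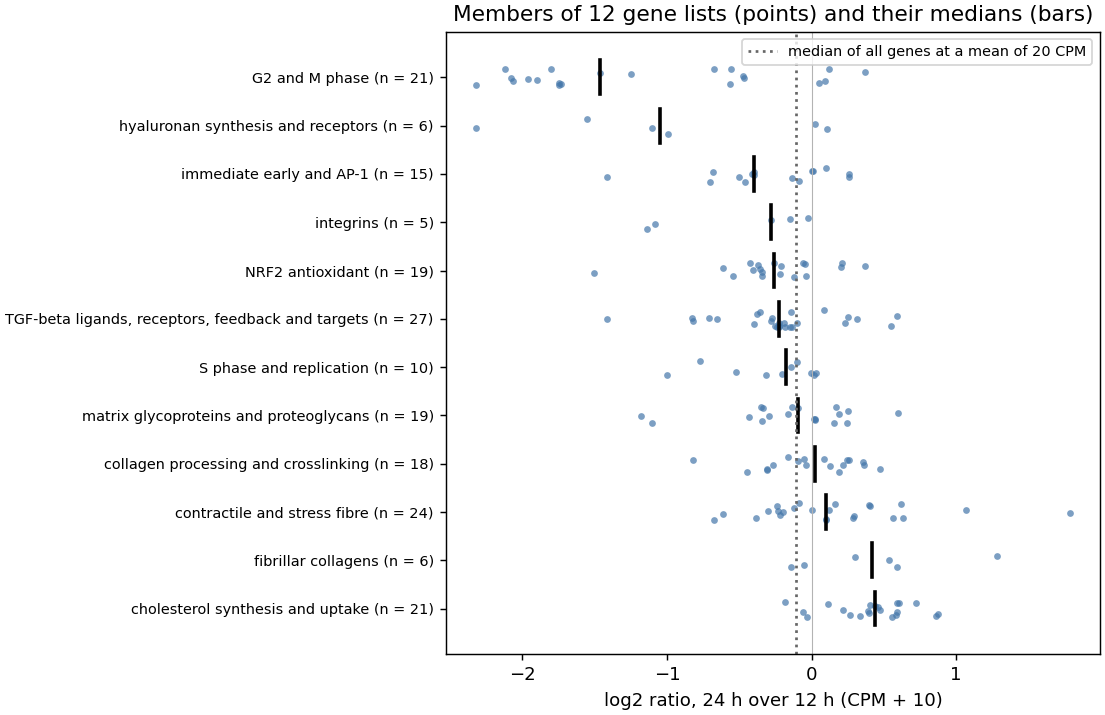
Log2 ratios (24 h over 12 h, CPM plus 10) of the measured members of 12 gene lists, with the median of each list as a bar; the dotted line is the median of all 6467 genes, -0.11. The lists of G2 and M phase and of hyaluronan have medians of -1.46 and -1.05, and those of fibrillar collagens and cholesterol synthesis 0.42 and 0.44.

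Of the lists with more than 1 measured member, the lowest median was that of G2 and M phase genes, which drive chromosome condensation, spindle assembly and division. Many such promoters carry a cell cycle homology region, TTTGAA, often with CCAAT boxes upstream. Through the homology region the DREAM complex holds them silent in resting cells. The promoters of 7 of the 13 members with TTTGAA are shown because of the low median of this list. They are from RefSeq (GRCm38.p6), with TTTGAA or its complement TTCAAA in capitals in all 7, and likewise CCAAT or its complement ATTGG, which these stretches of Kif23, Top2a and Cdk1 hold. Positions count from the transcript start as +1.
Hmmr, chr11:40733418-40733447, minus strand: ggggaaagttgaggtaaaTTTGAAttcagg
Ccnb2, chr9:70421535-70421564, minus strand: tcagcggcgcggtaTTTGAAtcgcggaccg
Cenpf, chr1:189688067-189688096, minus strand: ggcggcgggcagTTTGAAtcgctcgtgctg
Kif23, chr9:61946780-61946809, minus strand: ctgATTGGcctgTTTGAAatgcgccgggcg
Mki67, chr7:135716380-135716509, minus strand: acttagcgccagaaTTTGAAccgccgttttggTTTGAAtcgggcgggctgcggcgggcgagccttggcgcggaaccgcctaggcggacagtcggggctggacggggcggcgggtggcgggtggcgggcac
Top2a, chr11:99024190-99024319, minus strand: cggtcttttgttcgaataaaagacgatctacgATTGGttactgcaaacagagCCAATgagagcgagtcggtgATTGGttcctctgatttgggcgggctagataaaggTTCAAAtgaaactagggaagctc
Cdk1, chr10:69352913-69353042, minus strand: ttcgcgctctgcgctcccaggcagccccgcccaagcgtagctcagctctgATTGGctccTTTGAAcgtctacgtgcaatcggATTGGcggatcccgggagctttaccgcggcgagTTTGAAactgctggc

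In Hmmr, Ccnb2, Cenpf and Kif23 the motif begins 3 to 9 bases into the transcript, and in Mki67, Top2a and Cdk1 it lies upstream of the start. Of 18 measured members with a matched promoter of 300 bases (250 before to 50 after the start), 13 hold TTTGAA on either strand (72.2%), against 17.9% of 32851 promoter windows and 13.1% of 5150 genes at a mean of 20 CPM. CCAAT occurs in 15 of the 18 (83.3%), against 37.4% and 42.6%. The 13 genes with TTTGAA had a median log2 ratio of -1.73 and the 5 without it -1.25. For CCAAT the order was the other way, -1.46 for the 15 with it and -1.73 for the 3 without. Of the 13 genes with TTTGAA 9 were at least 1.5-fold lower and 0 higher. The others were Cdk1, shown above, with a log2 ratio of -0.55, and 3 that are not shown. These were Ckap2 at -0.57, Bub3 at 0.05 and Tubb4b at 0.37. A match describes these letters only.

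Hmmr, a spindle protein and hyaluronan receptor, had 281 CPM at 6 h, 71.4 at 12 h (64.4 to 78.9) and 6.32 at 24 h (4.45 to 8.71), 11.3-fold lower (8.05 to 16.3) than at 12 h. Ccnb2, cyclin B2, had 58.6 and 5.81 CPM, Cenpf, a kinetochore protein, 58.2 and 6.32, and Tpx2, a spindle assembly factor, 50.9 and 4.44. Mki67, the proliferation antigen, had 56.5 and 7.86 CPM, and Top2a, topoisomerase II, had 77.4 and 21.7. Of 21 measured members 12 were at least 2-fold lower, 13 were at least 1.5-fold lower and 0 were higher, with a median log2 ratio of -1.46. Over all 6467 genes 50 (0.773%) were at least 2-fold lower and 43 (0.665%) higher. Of the 21 members 14 reached 20 CPM at 12 h only. Of all 48 genes on the list, 44 had a lower CPM at 24 h and 4 a higher one.

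Much of the difference in the sum lay in a small set of barcodes. After thinning, 59 of 733 barcodes (8.05%, 6.18 to 10.3) held 10 or more counts of the 48 genes at 12 h, and 5 of 822 (0.608%, 0.198 to 1.41) did at 24 h. They carried 56.1% of the list's counts at 12 h and 11.4% at 24 h. In the rest the list summed to 846 and 758 CPM, against 1782 and 849 CPM in all barcodes. The median barcode held 1 count at both times. Near the limit, at 8 to 11 counts, lay 13 barcodes at 12 h and 0 at 24 h. Without the rich barcodes the median log2 ratio over the same 21 genes was -0.42, and summed CPM called 29 genes higher and 15 lower, of which 29 and 14 were those called with all barcodes. S phase genes differed less: 2 of 10 measured, Mcm6 (47.0 and 18.4 CPM) and Rrm1 (49.8 and 25.1 CPM), were at least 1.5-fold lower, and the median was -0.17. Without the rich barcodes Rrm1 had 33.9 and 24.2 CPM, a log2 ratio of -0.36 that is under 1.5-fold, and Mcm6 had -0.94.

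**Figure D5:**
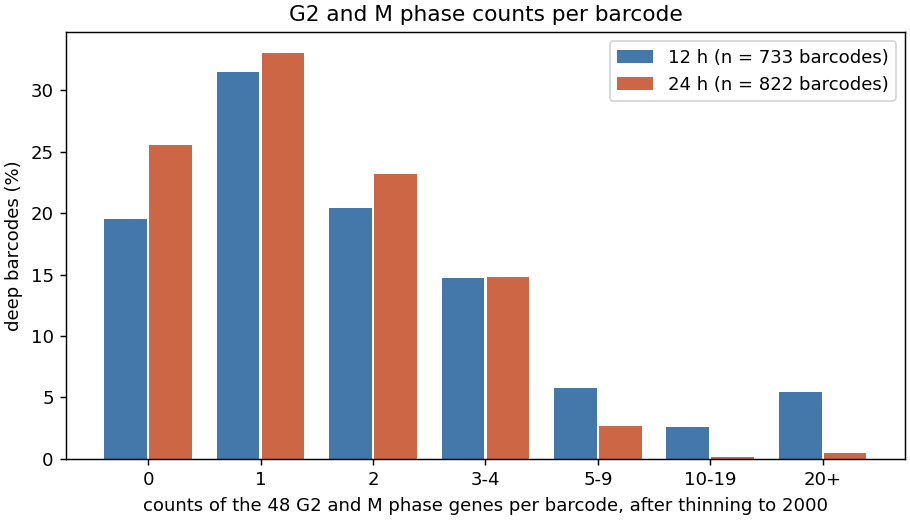
Percent of deep barcodes by the number of counts of the 48 G2 and M phase genes after thinning to 2000 counts, at 12 h (blue) and 24 h (orange). Barcodes with 0, 1 or 2 counts are somewhat more frequent at 24 h, whereas 59 barcodes at 12 h and 5 at 24 h hold 10 or more.

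Genes of cholesterol synthesis and uptake were higher as a group. The pathway turns acetyl-CoA into cholesterol through mevalonate and squalene, under SREBP2, which binds sterol regulatory elements. Of 21 measured genes 6 were higher by 1.5-fold or more and 0 lower, 18 had log2 ratios above 0 (32.3% of all 6467 genes did), and the median was 0.44. Of the 21 members 3 reached 20 CPM at 24 h only. Fdps, farnesyl diphosphate synthase, had 52.4 and 104 CPM, a ratio of 1.99 (1.72 to 2.30). Lss, which closes the sterol ring, had 29.8 and 62.2 CPM, and Acat2, at the entry to the pathway, had 26.1 and 49.5. Fdps has 50.5% and Acat2 31.4% shared 3′ words, and without the 4 members at 10% or more, 4 of 17 were higher, 0 lower and the median was 0.40. Pmvk, phosphomevalonate kinase, had 17.0 and 30.9 CPM, and Scd2, a fatty acid desaturase under the same regulators, 573 and 868. The list took a median of 0.0980% of a barcode's counts at 12 h and 0.175% at 24 h, and 70.2% of the 24 h barcodes lay above the 12 h median. The higher level was thus spread over many barcodes.

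Hmgcs1, the synthase that makes the substrate of the reductase, had 81.5 and 114 CPM. Its promoter is shown because it is the 1 of 12 matched members that holds the element core TCACCCCAC, which 0.551% of all windows hold. The stretch lies 160 to 101 bases before the start.
Hmgcs1, chr13:119690191-119690250, plus strand: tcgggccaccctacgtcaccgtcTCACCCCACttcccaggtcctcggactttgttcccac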

How the data were processed

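The deposited table gives raw counts, whole numbers by gene (17391) and barcode, as its values show. Reads were aligned with STAR 2.5.3a and mm10 was the build, per the submitters' processing notes. The counter, annotation, strand setting, barcode filter and whether UMIs were collapsed are, in the sources used here, not given, so values are called counts. Deep barcodes (2000 or more counts) of each library were added up and expressed as CPM. Log2 ratios are of CPM plus 10, which understates low genes. Ratios in the text use CPM without it. Intervals are exact Poisson (CPM), conditional binomial (ratios) and binomial (shares), at 95%. With 1 library a time no test was made. Thinning to 2000 counts used a fixed seed. Scrublet called 24 and 2 deep barcodes doublets at 12 and 24 h. They were kept, and so few calls at 24 h (2 of 1328 barcodes) do not show that doublets were found.

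Named genes are the 12 highest and 12 lowest among genes reaching 100 CPM at either time (no mitochondrial, ribosomal protein or predicted genes), the fixed genes, and up to 6 members of each of 28 response lists with the largest absolute log2 ratio. Other genes called by both measures, other list members with 20 CPM and cell type markers were named after their values were seen. Some genes that these rules name are not reported here. List members count as measured at a mean of 20 CPM. The comparison and lists were chosen with earlier results of these data known. Table names matched GENCODE M21 for 99.6% of genes at 20 CPM, which also gave positions, overlaps and transcripts for the search of shared 50-base words. Motifs were sought on both strands of RefSeq promoters. The method was tested on simulated data. Alternatives were other depth limits, barcodes 1 base apart left out or added together, doublets left out, TMM and DESeq2 size factors, other totals, pseudocounts, floors and fold limits, and leaving out barcodes rich in G2 and M phase counts. Tools were scanpy 1.11.5, scipy 1.17.1, pandas 2.3.3, numpy 2.4.6 and matplotlib 3.10.9 in Python 3.11.15, and DESeq2 1.42.0 and edgeR 4.0.16 in R 4.3.3.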

Additional observations from a re-analysis of the deposited data

How the results depend on the processing

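No paired analysis was possible because each time point is 1 library. The 57 named genes at least 2-fold apart kept their direction under all 14 alternatives run for each, and so did 182 of 194 named genes in all and 20 of 30 list medians. The 57 were picked as 2-fold apart in the same libraries, whose counts the alternatives only rescale or select otherwise. A kept direction is therefore not a separate check. The number of genes called moved by over 1.5 times in these cases, given for summed CPM, equal weight and both. Lower genes numbered 7, 7 and 7 with TMM and with DESeq2 size factors, 3, 4 and 3 with a pseudocount of 50, 37, 37 and 34 with a floor of 50 CPM, and 7, 6 and 6 with a floor of 200. A limit of 1.5-fold gave 94, 92 and 89 higher and 80, 78 and 71 lower. Leaving out genes with shared 3′ sequence, an alternative chosen after seeing the data, gave 9, 9 and 9 higher with 50-base words and 7, 7 and 7 with 30-base words. RPL24, which had no matched transcript, was kept in these numbers. Higher calls made up 67.4% of calls by both measures, 84.8% with TMM or DESeq2 factors (39 higher, 7 lower), 87.5% with a pseudocount of 50, 52.8% with a floor of 50, 55.6% at 1.5-fold, and 42.9% and 36.8% without shared sequence. The median log2 ratio of all genes at 20 CPM was -0.11 (6467 genes) and -0.01 with TMM (6453 genes). The G2 and M phase median was above 0 only where its members changed: 0.19 over 5 members without barcodes of 3 or more such counts, and 0.086 over 4 members at 50 CPM. Leaving out only barcodes with 10 or more, chosen after seeing the data, gave -0.42 over the same members. In both cases the barcodes left out were picked by counts of this same list. With another seed 362 of 388 thinned shares stayed inside their interval. Depth limits genes under about 20 CPM, where few counts were seen. The sign of the contractile, matrix glycoprotein, other collagen and collagen processing medians, all near 0, changed under at least 1 alternative.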

Other observations

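Genes that NRF2 raises against oxidative stress were lower on balance at 24 h, with 2 of 19 measured at least 1.5-fold lower, 0 higher, 16 below 0 and a median log2 ratio of -0.26. Of all 6467 genes 67.7% lay below 0 and 3.4% were at least 1.5-fold lower. Nqo1, a quinone reductase, had 65.2 CPM at 6 h, 40.7 at 12 h and 7.86 at 24 h, 5.17-fold lower (3.75 to 7.28) at 24 h than at 12 h, and was in 7.37% and 1.09% of barcodes. Gsto1, a glutathione transferase, had 415 and 268 CPM, and Txnrd1, thioredoxin reductase, had 373 and 253. Ftl1, ferritin light chain, with 74.0% shared 3′ words, had a log2 ratio of 0.37 and Fth1, its heavy chain, -0.43. All 10 measured BMP and ID genes had log2 ratios below 0, from Bmp2 at -1.20 to Grem1 at -0.02, and 1 was past 1.5-fold, which is to be read against the same shares of all genes.

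Of 9 measured chemokine, cytokine and adhesion genes 8 had log2 ratios above 0, against 32.3% of all genes, and 1, Spp1, was past 1.5-fold. Spp1, osteopontin, had 1.86 CPM at 6 h, 19.95 at 12 h and 56.0 at 24 h. Its 6 h value lies below the 5.59 CPM that finding no count would allow there. Few barcodes held it, 2.73% at 12 h and 4.74% at 24 h, and 1 barcode held 16.8% of its counts at 12 h. Ccl2, a monocyte chemokine, had 137 and 171 CPM, and Cxcl12, a chemokine of stromal cells, had 1083 and 1310. Nupr1, a stress-induced regulator, had 287, 1328 and 2171 CPM in time order, while Psat1, of serine synthesis on the same list of ATF4 targets, had 82.0, 28.2 and 12.0. Osmr, the oncostatin M receptor, had 19.02 and 43.4 CPM, and Hk2, a hexokinase, had 88.4 and 45.1.

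Among 15 YAP and TEAD targets the median log2 ratio was -0.01, and members lay on both sides: Amotl2, which binds YAP, had 241 and 362 CPM, Ankrd1, a nuclear ankyrin repeat protein, had 1301 and 1688, and Gadd45a had 293 and 213. The p53 targets Mdm2 (365 and 229 CPM) and Phlda3 (66.8 and 33.8 CPM) were the 2 of 15 measured cell cycle inhibitors and p53 targets past 1.5-fold, both lower. Of all 6467 genes 3.4% were at least 1.5-fold lower.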
